A study of Arabidopsis thaliana with 8 samples.

Results

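*BHLH101*, AT1G47400, and AT5G05250 are nuclear genes of Arabidopsis that are known for their response to iron deficiency. Each has 1 probe set on the Affymetrix ATH1 array (245692_at, 261684_at, and 250828_at), so that they account for 3 of the 22810 probe sets measured. They were chosen by earlier results of these same arrays, on which their signals were higher in *fhy3* than in wild type. Their own differences between genotypes are therefore given as a description, with no test.

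Plants that run short of iron switch on a set of genes that take up, move, and release the metal. *BHLH101* encodes a transcription factor of the basic helix-loop-helix family that belongs to a small group, with *BHLH38*, *BHLH39*, and *BHLH100*, whose transcripts rise when iron is short. In the root, factors of this group are known to pair with FIT to activate the reductase gene *FRO2* and the iron transporter gene *IRT1*. *PYE* encodes another helix-loop-helix factor, a repressor that is itself induced by iron deficiency. The iron supply and the circadian clock of Arabidopsis are also known to affect each other. AT1G47400 and AT5G05250 have no gene name in the annotation used here, and no further role is given to them.

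The arrays compare wild type seedlings of the No-0 ecotype with the *fhy3-4* mutant, which lacks normal function of a transcription factor of light signalling and is represented by this 1 mutant allele. All seedlings were grown on Murashige and Skoog medium with 2% sucrose at 21 C, in cycles of 12 h white light and 12 h darkness for 7 days, and were then moved to constant red light of 660 nm. The labels name no change in the iron supply of either genotype. Whole seedlings, about 100 per sample, were collected after 24, 32, 40, and 48 h of red light, with 1 array for each genotype at each time, so that no time point has a biological replicate. The arrays at 24 and 48 h both stand for subjective dawn, 1 day apart, and those at 32 and 40 h for subjective afternoon and night. In whole seedlings, a change in the share of cells that express a gene and a change in the level per cell cannot be told apart.

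Mean signals per array ranged from 402.4 to 438.8 and were highest in *fhy3* at 40 h. Low probe sets were left out by a limit of 20.7, which is 5% of the overall mean signal and had to be reached by the mean of either genotype, and 17660 were tested. Signals under 20.7 were set to that value before log2 was taken. *FHY3* itself was not analysed here, so that the genotype labels were not checked on the mutated gene.

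*BHLH101* lay near or under 20.7 in wild type and well above it in *fhy3*. Its signals in wild type at 24, 32, 40, and 48 h were 17.8, 13.1, 13.5, and 25.9. In *fhy3* they were 84.0, 108, 66.6, and 139 at the same times. The genotypes did not overlap, and the lowest *fhy3* array was 2.57 times the highest wild type array. In wild type, the arrays at 24, 32, and 40 h lay under 20.7, where signals have no reliable order. With those set to 20.7 the ratio of *fhy3* to wild type was 4.06, 5.2, 3.22, and 5.37 at the 4 times, and at 48 h alone were both signals above 20.7. The wild type mean of 17.6 lay under the filter as well, so that *BHLH101* entered the fit through *fhy3* alone. The fitted difference in mean level, with low signals set to 20.7, was 2.097 on the log2 scale (SE 0.22, n = 4 arrays per genotype), and it was 2.56 with the signals taken as deposited. With 82.7, or 20% of the overall mean signal, as the floor it was 0.255.

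AT1G47400 showed the largest fitted difference of the 3 genes and the most even one over time. Its signals in wild type at the 4 times were 62.0, 60.2, 65.3, and 103. In *fhy3* they were 522, 463, 472, and 731. All arrays of both genotypes were above 20.7, and the lowest *fhy3* array was 4.50 times the highest wild type array. The ratio of the genotypes stayed within 7.11 and 8.43 over the 4 times, the highest at 24 h and the lowest at 48 h. The fitted difference in mean level was 2.92 on the log2 scale (SE 0.24, n = 4 arrays per genotype), which is 7.55-fold. The next gene before it on the chromosome, AT1G47395, was not analysed here, and whether its transcript also binds to this probe set was not tested.

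AT5G05250 had the most variable difference, because its wild type signal fell to a low point at 32 h. Its signals in wild type at the 4 times were 104, 32.2, 110, and 182, a 5.66-fold range. In *fhy3* they were 373, 365, 482, and 491, a 1.35-fold range. The array at 32 h was the lowest of both genotypes, by a wide margin in wild type and by a narrow one in *fhy3*. The ratio of the genotypes was accordingly 11.4 at 32 h, and it was lower at the other times (3.59, 4.37, and 2.70). The genotypes did not overlap, the lowest *fhy3* array being 2.00 times the highest wild type array. The fitted difference in mean level was 2.42 on the log2 scale (SE 0.25, n = 4 arrays per genotype).

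**Figure D1:**
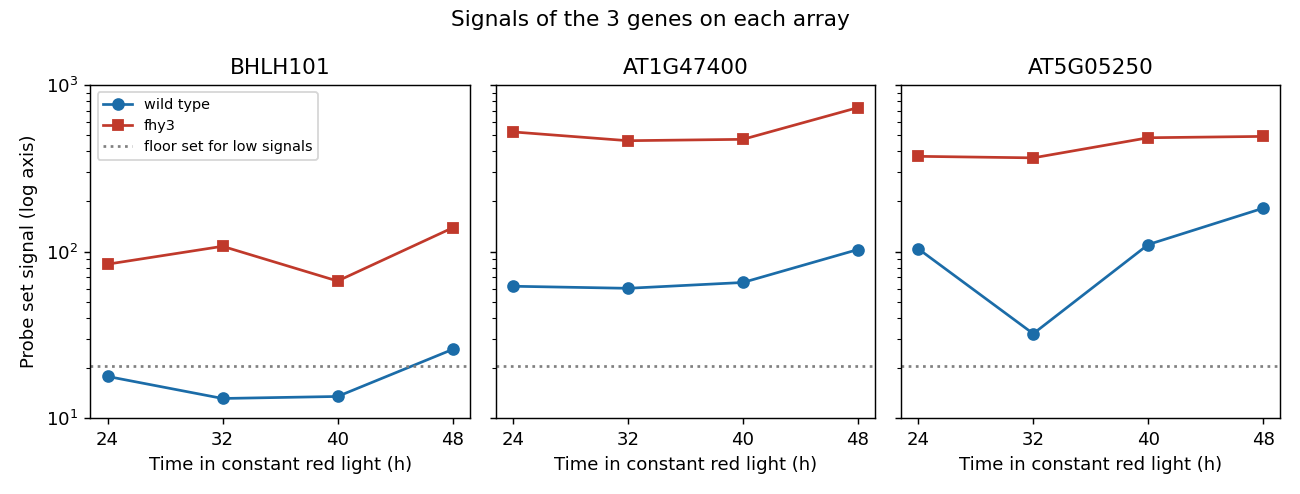
Probe set signal (log axis) against time in constant red light (h), 1 panel per gene, with a point for each array, wild type as circles and *fhy3* as squares. The dotted line marks the signal of 20.7 to which lower signals were set. In each panel all 4 *fhy3* points lie above all 4 wild type points, and AT5G05250 has a low wild type point of 32.2 at 32 h.

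Among the 17660 probe sets ordered by the fitted log2 difference, AT1G47400 was in place 6 from the top and AT5G05250 in place 12. The place of *BHLH101* depends on the floor and is not given. Each of the 3 genes was at least 2-fold higher in *fhy3* at 4 of 4 times. Of all probe sets tested, the shares at least 2-fold higher at the 4 times in turn were 1.35%, 6.05%, 5.77%, and 1.47%. Every *fhy3* array was above every wild type array for 5.66% of probe sets. These shares describe the contrast on which the genes were chosen, so that nothing is read from the count of 3.

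The changes over time within a genotype can be set beside the gap between the arrays at 24 and 48 h, as a description with no test. These arrays are the only pair taken 24 h apart, and whether the clock of each genotype was at the same phase on both was not tested. For *BHLH101* in *fhy3* the signals spanned 2.09-fold, from 66.6 at 40 h to 139 at 48 h, and the gap was 1.65-fold. Its wild type signals lay mostly under 20.7. For AT1G47400 the span was 1.71-fold in wild type, with a gap of 1.66-fold, and 1.58-fold in *fhy3*, with a gap of 1.40-fold. For AT5G05250 it was 1.35-fold in *fhy3*, with a gap of 1.32-fold, and 5.66-fold in wild type, with a gap of 1.75-fold. The span was thus widest against its gap for AT5G05250 in wild type, where the low point at 32 h rests on 1 array.

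All 3 genes were highest at 48 h, the second subjective dawn in red light, in both genotypes. Between 24 and 48 h *BHLH101* went from 17.8, which is under 20.7, to 25.9 in wild type and from 84.0 to 139 in *fhy3*. AT1G47400 went from 62.0 to 103 and from 522 to 731, and AT5G05250 from 104 to 182 and from 373 to 491. Over all probe sets tested the median ratio of 48 to 24 h was 1.01 in wild type and 1.01 in *fhy3*. A highest signal at 48 h in both genotypes was found for 5.57% of probe sets. The rise was not tested, because 1 array stands for each genotype and time.

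**Figure D2:**
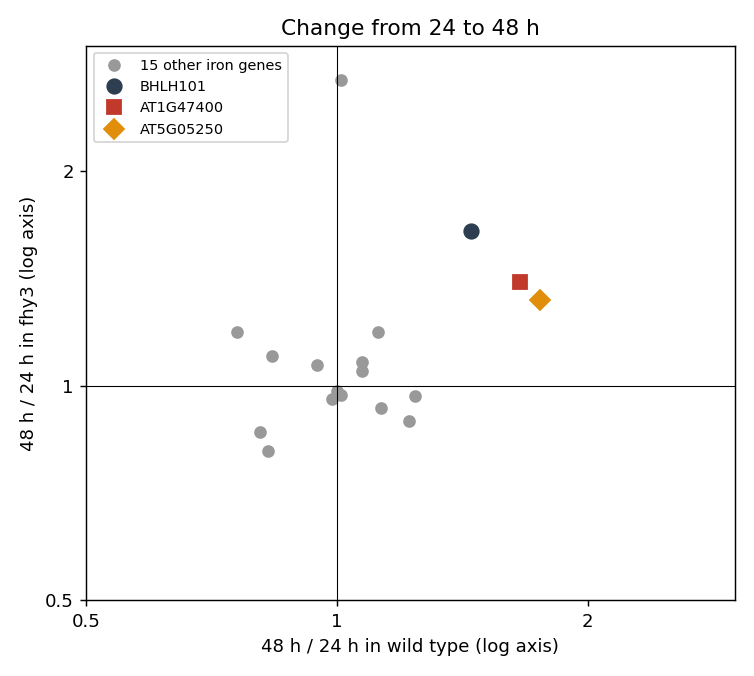
Ratio of the signal at 48 h to that at 24 h in *fhy3* (vertical, log axis) against the same ratio in wild type (horizontal, log axis), with 1 point per gene. The 3 genes lie at 1.45 to 1.75 in wild type and 1.32 to 1.65 in *fhy3*, to the upper right of most of the 15 other iron genes, whose medians were 1.01 and 0.982. The wild type value of 1.45 is that of *BHLH101*, whose wild type signal at 24 h was under 20.7.

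None of the 3 genes met the correlation criterion for rhythm that the study applied, in either genotype. For wild type in red light, the paper reports that most expressed genes met it. It gives no such share for *fhy3*, and the share among the probe sets tested here was not computed. With 4 arrays that criterion needs an r of 0.99 with a sine wave of 24 h. The highest r in wild type was 0.831 for *BHLH101*, 0.568 for AT1G47400, and 0.853 for AT5G05250. That of *BHLH101* rests on deposited signals mostly under 20.7, which have no reliable order. In *fhy3* the highest r was 0.696, 0.734, and 0.702.

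Other genes of iron homeostasis showed smaller differences than the 3 genes, which were chosen for being higher in *fhy3*. Of the other genes, 3 were called higher in *fhy3*. A list of 70 genes was written for regulation, uptake, transport, and storage of iron and for other transcripts induced by iron deficiency. Of these, 16 could be paired with a probe set and 15 passed the filter, and the list was written with earlier results of these arrays known. *BHLH38*, *BHLH39*, *BHLH100*, *FIT*, *IRT1*, *FRO2*, and the ferritin genes were not analysed here. By limma on log2 signals, with a mean and a 24 h rhythm for each genotype, 3 of the 15 were higher in *fhy3* at an adjusted p under 0.05, where 3.70% of all probe sets were, and 0 were lower, where 2.56% were. At an unadjusted p under 0.05, 6 were higher and 1 was lower, where 18.0% and 13.9% of all probe sets were. The median log2 difference of the 15 was 0.30, against 0.02 over all probe sets tested, and 12 of them had a difference above 0, as did 53.1% of all.

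*PYE*, the repressor induced by iron deficiency, was 1 of 2 genes of the regulation list that passed, with AT1G74770. Its signals over the 4 times were 155, 131, 157, and 173 in wild type, whereas *fhy3* had 235, 239, 258, and 279. Every *fhy3* array of *PYE* was above every wild type array, as for 3 of the 15 iron genes tested and 5.66% of all probe sets. The ratio lay between 1.52 and 1.83 (log2 difference 0.75, SE 0.10, n = 4 arrays per genotype, adjusted p = 0.043 from limma). Like the 3 genes above, *PYE* was highest at 48 h in both genotypes. In the order of the ratios its difference was far below theirs, at 1.62 against 2.70 to 7.11 at 48 h.

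AT3G56360 differed mainly in the afternoon and at night. Its signals were 2123, 867, 1601, and 2096 in wild type, against 2396, 2414, 2934, and 2292 in *fhy3*. Its wild type signal had a low point at 32 h, as that of AT5G05250 did, and the ratio was 2.79 at that time and 1.09 at 48 h (fitted log2 difference 0.83, SE 0.07, adjusted p = 0.0312 from limma). AT1G74770 had signals of 104, 58.4, 17.0, and 78.9 in wild type, against 142, 115, 38.9, and 170 in *fhy3*. It was higher in *fhy3* at 4 of 4 times, as were 16.3% of all probe sets tested, though the genotypes overlapped (log2 difference 0.89, SE 0.14, adjusted p = 0.0498 from limma). The wild type signal of AT1G74770 at 40 h, 17.0, was under 20.7. A second probe set paired with AT1G74770 was under 20.7 on all 8 arrays. These calls rest on a spread of 2 residual degrees of freedom, from 24 against 48 h. With time as a block *PYE*, AT1G74770, and AT3G56360 no longer passed (adjusted p = 0.0519, 0.0712, and 0.222 from limma), where 53 of all 17660 probe sets were called higher. Without any 1 of the arrays at 24 or 48 h 0 of the 15 were called. Of all 17660 probe sets 0 were then called with the rhythm terms kept, and 2 to 5 higher and 3 to 6 lower with time as a block. The loss of calls is therefore not particular to the iron genes. The arrays at 32 and 40 h could be left out only with time as a block. AT1G74770 also missed the threshold with quantile normalization (adjusted p = 0.0557) and among named probe sets (0.0526). With the floor at 20% of the overall mean signal, *PYE* and AT1G74770 did not pass (adjusted p = 0.0867 and 0.248 from limma). Without a filter they did not pass either (adjusted p = 0.0867 and 0.119). AT3G56360 passed under both settings (adjusted p = 0.00866 and 0.0136). Without a floor *PYE*, AT1G74770, and AT3G56360 all passed (adjusted p = 0.031, 0.0309, and 0.0199).

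Of the factors that act above *BHLH101* in the iron response, none passed the test. Over all probe sets 3.70% were called higher and 2.56% lower, so that few calls would be seen among so few genes in any case. *bHLH104*, *bHLH34*, *bHLH115*, and *ILR3* encode helix-loop-helix factors that are known to activate the *BHLH101* group, and *bHLH121* encodes a partner of theirs. *ILR3* had signals of 1564, 1744, 1530, and 1583 in wild type, against 1387, 1373, 1424, and 1345 in *fhy3*, and was the only gene of the list with every *fhy3* array below every wild type array, as were 5.17% of all probe sets (log2 difference −0.22, SE 0.07, adjusted p = 0.117 from limma). It passed with no filter on low signals (adjusted p = 0.0462) and with low signals set to 82.7 (adjusted p = 0.0434). *bHLH121* had a log2 difference of −0.33 (SE 0.12, adjusted p = 0.166), and *bHLH34* one of −0.21 (SE 0.10, adjusted p = 0.251). *bHLH104* had a difference of 0.19 (SE 0.07, adjusted p = 0.167) and *bHLH115* one of 0.02 (SE 0.06, adjusted p = 0.848 from limma). AT1G18910, the remaining gene of the regulation list, had a difference of 0.40 (SE 0.08, adjusted p = 0.0705).

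**Figure D3:**
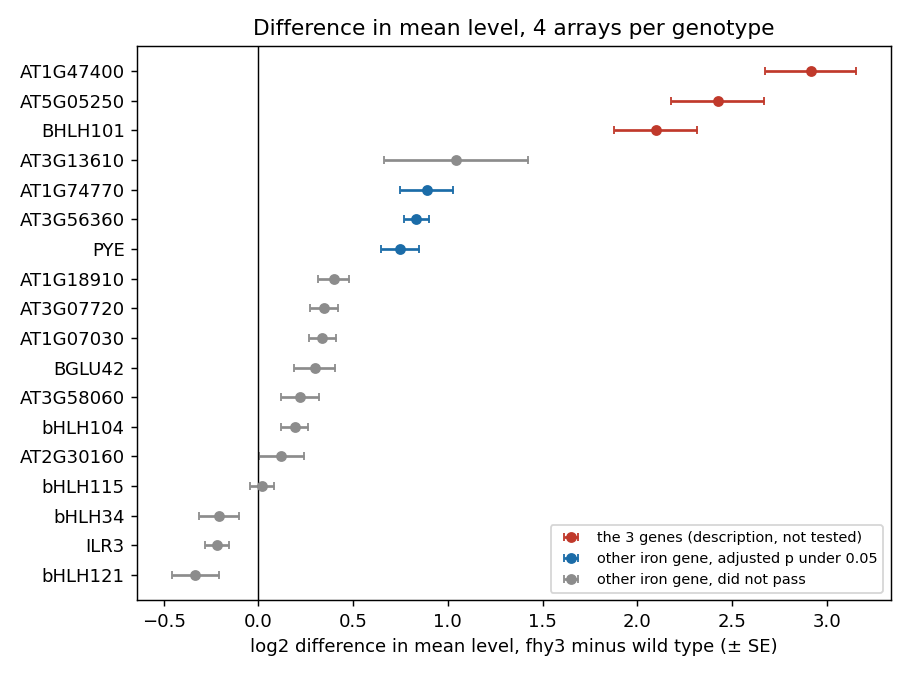
Log2 difference in mean level, *fhy3* minus wild type, with its SE from the fit, for the 3 genes and the 15 other iron genes. The 3 genes lie at 2.097 to 2.92, the 3 other genes that passed the test at 0.75 to 0.89, and the rest between −0.33 and 1.04.

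Of the genes of iron uptake, AT3G13610 had the largest difference of the 15, and it did not pass the test. It encodes F6'H1, an enzyme of the synthesis of coumarins, which roots release to mobilise iron. Its signals were 421, 352, 117, and 423 in wild type, against 415, 769, 289, and 1113.8 in *fhy3*. The genotypes had nearly the same signal at 24 h, and *fhy3* was 2.19, 2.48, and 2.63 times wild type at the later times (fitted log2 difference 1.04, SE 0.38, adjusted p = 0.16 from limma). Its signal in *fhy3* rose 2.69-fold from 24 to 48 h and that in wild type 1.01-fold. *BGLU42*, a beta-glucosidase gene known to act on coumarins, was higher in *fhy3* at 4 of 4 times, as were 16.3% of all probe sets tested. Its ratio was 1.06 to 1.46, and it did not pass (log2 difference 0.30, SE 0.11, adjusted p = 0.161 from limma). AT3G12900 was under 20.7 on all 8 arrays and was not tested.

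The 3 transport genes AT3G58060, AT2G30160, and AT1G07030 had log2 differences of 0.22, 0.12, and 0.34, and AT3G07720, of the other iron deficiency transcripts, one of 0.35. None of the 4 passed (adjusted p from 0.0709 to 0.52 from limma), where 3.70% of all probe sets were called higher and 2.56% lower. AT3G07720 was higher in *fhy3* at 4 of 4 times, as were 16.3% of all probe sets tested, by ratios of only 1.25 to 1.31. At single times, 0 of the 15 were at least 2-fold higher in *fhy3* at 24 h, and 2, 1, and 2 at the later times, with low signals set to 20.7, where 1.35, 6.05, 5.77, and 1.47% of all probe sets were. At least 2-fold lower were 0 of the 15 at each time, where 1.02, 2.64, 1.91, and 1.01% of all probe sets were. Together with *PYE*, AT3G13610 and AT3G07720 were highest at 48 h in both genotypes, which makes 3 of the 15, where 5.57% of all probe sets were. For AT3G13610 in wild type this rests on 423 at 48 h against 421 at 24 h.

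**Figure D4:**
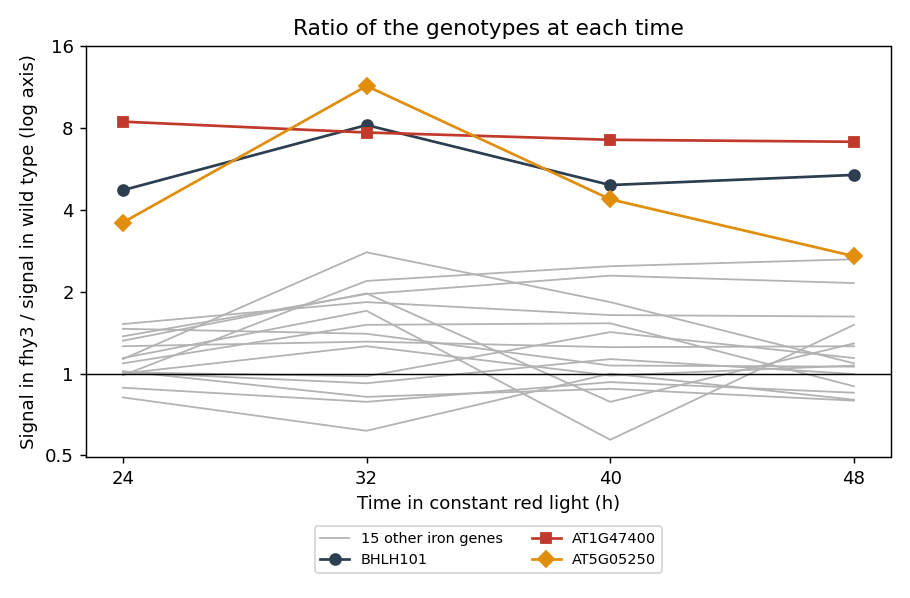
Ratio of the signal in *fhy3* to that in wild type (log axis) at each time in red light (h), for the 3 genes with markers and the 15 other iron genes as grey lines, from signals as deposited, so that the points of *BHLH101* before 48 h rest on wild type signals under 20.7. The 3 genes lie between 2.70 and 11.4 and the grey lines between 0.571 and 2.79. The lowest grey point, that of AT3G58060 at 40 h, rests on an *fhy3* signal of 16.6, which is under 20.7. The point of AT1G74770 at 40 h rests on a wild type signal of 17.0, also under 20.7. At each time the lowest of the 3 genes is above the highest grey line, at 48 h only by 2.70 against 2.63. The 3 genes were chosen on these arrays for being higher in *fhy3*, so that nothing is read from their place.

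Genes of other metals could rarely be paired with a probe set. Of the zinc list, *ZIP9*, a zinc transporter gene, had signals of 28.8, 48.1, 64.9, and 15.9 in wild type, against 21.4, 29.5, 38.9, and 24.2 in *fhy3* (log2 difference −0.52, SE 0.15, adjusted p = 0.111 from limma). *bZIP19*, a regulator of zinc deficiency responses, had a difference of 0.14 (SE 0.07, adjusted p = 0.252). Of the copper list, *CCS*, the copper chaperone of superoxide dismutase, had a higher signal in *fhy3* at 4 of 4 times, as did 16.3% of all probe sets tested (log2 difference 0.57, SE 0.14, adjusted p = 0.0817 from limma). None of the 3 passed the test, where 3.70% of all probe sets were called higher and 2.56% lower. *MTPA1* was under 20.7 throughout. No gene of the phosphate list was analysed here.

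Some transcripts of root hairs were also higher in *fhy3*. Of 15 root markers 3 could be named, and 2 of these 3 were called higher, where 3.70% of all probe sets were. *EXPA7* and *EXPA18*, expansin genes of root hairs, were higher by 1.99 (SE 0.23, adjusted p = 0.0373) and 1.13 (SE 0.10, adjusted p = 0.0318 from limma) on the log2 scale. Neither passed with time as a block (adjusted p = 0.0773 and 0.139 from limma), where 53 of all 17660 probe sets were called higher. Neither passed without any 1 of the arrays at 24 or 48 h, where at most 5 of all were called higher. *PYK10*, the abundant beta-glucosidase gene of roots, had a difference of 0.31 (SE 0.12, adjusted p = 0.165). The summed signal of the 3 root markers was 5854.4 to 7595.3 in wild type and 7169.7 to 10048.3 in *fhy3*, most of it from *PYK10*. *EXPA7* had 38.3, 38.9, 18.5, and 52.8 in wild type, against 78.7, 154, 148, and 128 in *fhy3*, and no root marker was at 0. Of 12 leaf markers *RCA*, *LHCB4.1*, and *PSAN* could be named and 0 of the 3 passed. As 3.70% of all probe sets were called higher and 2.56% lower, few calls would be seen in 3 genes in any case. The summed signal of the 3 leaf markers was 21798.1 to 26449.7 in wild type and 23021.6 to 24347.5 in *fhy3*. The part of root hair or root transcripts in the difference of the iron genes was not tested.

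For each of the 3 genes, the most similar profiles over the 8 arrays were sought among 10060 other probe sets with 1 named gene, by Pearson's r of log2 signals. *PYE* was the third closest to AT1G47400, with an r of 0.976, behind AT3G17940 at 0.982 and AT5G41660 at 0.978. AT5G41660 was under 20.7 on all wild type arrays, at 7.65 to 11.0, and had 456 to 511 in *fhy3*. Closest to *BHLH101* were AT3G21380 at 0.973, *IDH-VI*, an isocitrate dehydrogenase gene, at 0.964, and AT1G75200 at 0.96. AT3G21380 had 17.5, 5.69, 12.6, and 21.4 in wild type, mostly under 20.7, as *BHLH101* did. Its r with *BHLH101* thus rests in part on signals set to 20.7 in both genes. Closest to AT5G05250 were AT3G47590 at 0.994, AT5G17760 at 0.987, and AT3G02770 at 0.984. AT5G17760 shared the low point at 32 h in wild type, with 160, 90.6, 161, and 191 there, against 364, 288, 382, and 368 in *fhy3*. AT3G47590 had 292 at 32 h in wild type against 344 to 379 at the other times, and a difference in mean level of only 0.35. Among themselves, *BHLH101* and AT1G47400 had an r of 0.981, AT1G47400 and AT5G05250 one of 0.903, and *BHLH101* and AT5G05250 one of 0.857. The 3 genes were chosen for being higher in *fhy3*, and that gap enters every r, so that high values were likely in advance. AT5G41660, for example, was lowest at 48 h in both genotypes (7.65 and 456), where AT1G47400 was highest. The 8 arrays share 2 genotypes and 4 times, so that they are not independent, and the values of r are a description.

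The genes that flank the 3 genes on their chromosomes had smaller differences than the 3 genes, which were chosen for being higher in *fhy3*. By the gene order of the TAIR10.1 annotation, 18 protein-coding neighbours were considered, 3 on each side of each gene. Of these, 8 could be paired with a probe set and 7 were tested. Their log2 differences in mean level ranged from −0.31 to 0.71, and 0 of the 7 passed at an adjusted p under 0.05 from limma, where 3.70% of all probe sets were higher and 2.56% lower, so that few calls would be seen in 7 genes in any case. The highest was *CHIL*, 2 genes after AT5G05250, with mean signals of 360 in wild type and 495 in *fhy3* (adjusted p = 0.0619). AT1G47410, next to AT1G47400 on its other side, had mean signals of 86.1 and 81.8.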

How the data were processed

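Total RNA of whole seedlings was hybridised by the authors to Affymetrix ATH1 arrays, 1 for each of the 8 samples. The deposited values are linear intensity signals, scaled between arrays by the authors. MAS5, with no version given, stands in the submitters' processing notes and D-chip in the paper's methods, and which of them made the signals is unsettled. No detection calls were used. Of 22810 probe sets, 64 controls, 87 of organelle genes, 503 of several genes, and 5 with an unmatched symbol were left out. A further 8730 probe sets without a listed gene were kept, and 4491 were left out as low. Genes were named through gene IDs matched to the TAIR10.1 table of RefSeq, and the probe set with the highest mean signal stands for a gene.

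Differences in mean level were fitted with limma 3.58.1 (R 4.3.3) on log2 signals with 6 coefficients, a mean, a cosine, and a sine per genotype. With 2 residual degrees of freedom left, p-values measure the spread of 24 against 48 h and not that of biological replicates. P-values were adjusted by Benjamini-Hochberg over 17660 probe sets. The fit was tested on simulated data. Precision is limited by there being 8 arrays.

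The members and the gene lists were chosen with earlier results of these data known. The genes named are the 3 members, the called genes of the iron lists, up to 4 others per list, and the 3 closest profiles of each member. The genes of the iron lists beyond that rule, the neighbours on the chromosome, and AT3G12900 were named after their values were seen. Alternatives concerned the floor and filter on low signals, quantile normalization, time as a block, the variance prior, the probe sets tested, and each array left out. Protein and promoter sequences were not analysed here.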

Additional observations from a re-analysis of the deposited data

How the results depend on the processing

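The 3 genes were higher in *fhy3* under every alternative in which they were tested. Leaving out 1 array gave log2 differences of 1.98 to 2.28 for *BHLH101*, 2.79 to 3.04 for AT1G47400, and 1.80 to 2.56 for AT5G05250, the lowest of the last without the 32 h array of either genotype. Where the time block replaced the rhythm terms, the range for AT5G05250 was 1.80 to 2.49. Without a floor *BHLH101* had 2.56, and with the floor at 82.7 (20% of the overall mean) it had 0.255 and AT5G05250 1.97, because their low signals are raised to the floor. *BHLH101* was not tested with the filter at 20%. The counts of called probe sets moved far more. Higher in *fhy3* were 654 of 17660 probe sets, against 998 without a floor and 53 with time as a block, both of 17660. With fewer probe sets tested they were 1098 of 13215 with the filter at 20% and 347 of 10063 among named probe sets. Lower were 452 of 17660, against 55 of 17660 with time as a block and 712 of 22151 without a filter. They were 788 of 13215 with the filter at 20% and 232 of 10063 among named probe sets. Counts from different numbers tested are not directly comparable. Leaving out 1 array gave 2 to 5 higher and 3 to 7 lower with time as a block, and 0 in both directions with the rhythm terms kept. Of the iron list, 3 were higher, against 1 with the floor at 20%, 1 without a filter, 6 with the filter at 20%, 2 with quantile normalization or among named probe sets, and 0 with time as a block. It was also 0 without any 1 array, where those at 32 and 40 h were left out with time as a block only, so that 2 choices changed. Lower was 1 (*ILR3*) with the floor at 20% and 1 without a filter. The leaf marker *RCA*, at 0.09, had −0.0045 to 0.0961 with time as a block and 1 array left out. *EXPA7* and *EXPA18* no longer passed with the floor at 82.7 (adjusted p = 0.218 and 0.0554) or without a filter (0.0925 and 0.0567), and *CCS* passed with the filter at 20% (0.0438). The cause of these moves was not tested. With time as a block, leaving out either array of a time gives the same fit. Leaving out the arrays at 24 or 48 h with the sine and cosine terms kept was an alternative chosen after seeing the data.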
